A study of Homo sapiens with 3 samples.

Results

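Chemokine ligands are small secreted proteins that guide leukocytes, and in the human genome many of them are encoded in tight gene clusters. The genes described here are the protein-coding genes of the build hg38 whose symbols begin with CCL or CXCL and a number, together with CX3CL1, XCL1, XCL2, PF4 and PPBP. The rule gave 47 genes. Of these, 45 lay on the primary chromosomes among 19880 protein-coding genes there; the remaining 2, CCL3L1 and CCL4L1, are annotated on a scaffold outside them. Peaks were taken from chromatin immunoprecipitation followed by sequencing (ChIP-seq) in THP1, a human monocytic leukaemia line of wild-type genotype, given PMA for 24 h. PMA, a phorbol ester, makes these monocytic cells resemble macrophages. The series had 3 samples, all treated with PMA: 1 library for histone H3 acetylated at lysine 27 (H3K27ac, found at promoters and enhancers in use), 1 for the deacetylase SIRT1 and 1 input. With 1 library per antibody there was no replicate check and no p-value, and with no untreated sample the effect of PMA cannot be read from these lists.

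CXC chemokines with the residues ELR before the first cysteines, such as CXCL8 (interleukin 8) and CXCL1, attract neutrophils through CXCR1 and CXCR2. CXCL9, CXCL10 and CXCL11 are interferon-induced ligands of CXCR3 on T and NK cells. CCL2, CCL7, CCL8 and CCL13 attract monocytes through CCR2, and CCL3, CCL4 and CCL5 recruit monocytes and T cells. Macrophages are a major source of the inflammatory members, whose promoters are classic targets of NF-kB, whereas ligands such as CCL19, CCL21 and CXCL13 organise lymphoid tissue and come mainly from stromal cells.

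The promoters of the ELR genes on chromosome 4 are shown because promoters with the same NF-kB-type letters were found both with and without acetylation over the start. The sequences are the 110 bases before the annotated start, from RefSeq (GRCh38.p14), 5′ to 3′ on the gene's strand. Capitals mark matches to the NF-kB-type pattern GGNNNTTCC on either strand. The first 4 genes had an H3K27ac peak over the promoter window, and the last 3 did not.
CXCL8: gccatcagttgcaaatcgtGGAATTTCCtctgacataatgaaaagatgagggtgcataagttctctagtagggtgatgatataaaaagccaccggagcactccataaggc
CXCL1: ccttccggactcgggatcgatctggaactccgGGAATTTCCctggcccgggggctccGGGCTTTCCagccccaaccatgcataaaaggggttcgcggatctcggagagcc
CXCL2: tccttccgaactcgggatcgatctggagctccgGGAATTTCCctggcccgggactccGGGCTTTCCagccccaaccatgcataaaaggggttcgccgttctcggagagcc
CXCL3: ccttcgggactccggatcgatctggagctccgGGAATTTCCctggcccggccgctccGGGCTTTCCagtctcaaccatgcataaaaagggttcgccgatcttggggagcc
CXCL6: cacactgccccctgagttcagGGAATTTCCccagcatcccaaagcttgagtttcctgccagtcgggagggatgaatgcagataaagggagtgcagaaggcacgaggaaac
CXCL5: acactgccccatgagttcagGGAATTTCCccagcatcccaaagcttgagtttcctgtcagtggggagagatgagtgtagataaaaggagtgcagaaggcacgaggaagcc
PPBP: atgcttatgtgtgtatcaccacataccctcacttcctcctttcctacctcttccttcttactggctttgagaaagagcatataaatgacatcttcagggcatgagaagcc
These stretches lie on chromosome 4 at 73740459 to 73740568 for CXCL8 (plus strand), 73869283 to 73869392 for CXCL1 (plus) and 74099196 to 74099305 for CXCL2 (minus). CXCL3 is at 74038690 to 74038799 (minus), CXCL6 at 73836568 to 73836677 (plus), CXCL5 at 73998678 to 73998787 (minus) and PPBP at 73988191 to 73988300 (minus).

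All 7 ELR genes were in the promoter table, and 6 of them, all but PPBP, held the stretch GGAATTTCC. Its first base lay 91 bases before the start in CXCL8, 78 in CXCL1, 77 in CXCL2, 78 in CXCL3, 89 in CXCL6 and 90 in CXCL5. CXCL1, CXCL2 and CXCL3 held a further match, GGGCTTTCC, 53 bases before the start in each. Promoter windows of CXCL5 and CXCL6 were 83.1% identical in a global alignment of 300 bases each. CXCL1 and CXCL3 were 82.5% identical, CXCL1 and CXCL2 71.9%, and CXCL5 and CXCL8 48.0%. The NF-kB-type pattern thus occurred in ELR promoters with and without a peak. A letter match is a description and shows no binding.

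In a peak list, fold is the authors' ratio of signal at the summit to the local background, used here within its own list only. The deposited values equal the fragment count plus 1 over the background plus 1, so folds on few fragments are pulled towards 1. A gene was counted as marked where a summit lay within 1 kb of either end of its record. H3K27ac marked 17 of 45 chemokine ligand genes, or 37.8% (exact 95% binomial interval 23.8 to 53.5), against 53.4% of all protein-coding genes. A fold of at least 10 at an end was seen at 6 members, or 13.3% (5.05 to 26.8), against 38.9% of all genes. A fold of at least 20 was seen at 1 member, CXCL2, or 2.22% (0.0562 to 11.8), against 24.2%. The share of members at the higher folds therefore lay under the background share by more than the counting interval. Intervals cover counting error only, and neighbouring chemokine genes are not independent.

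**Figure D1:**
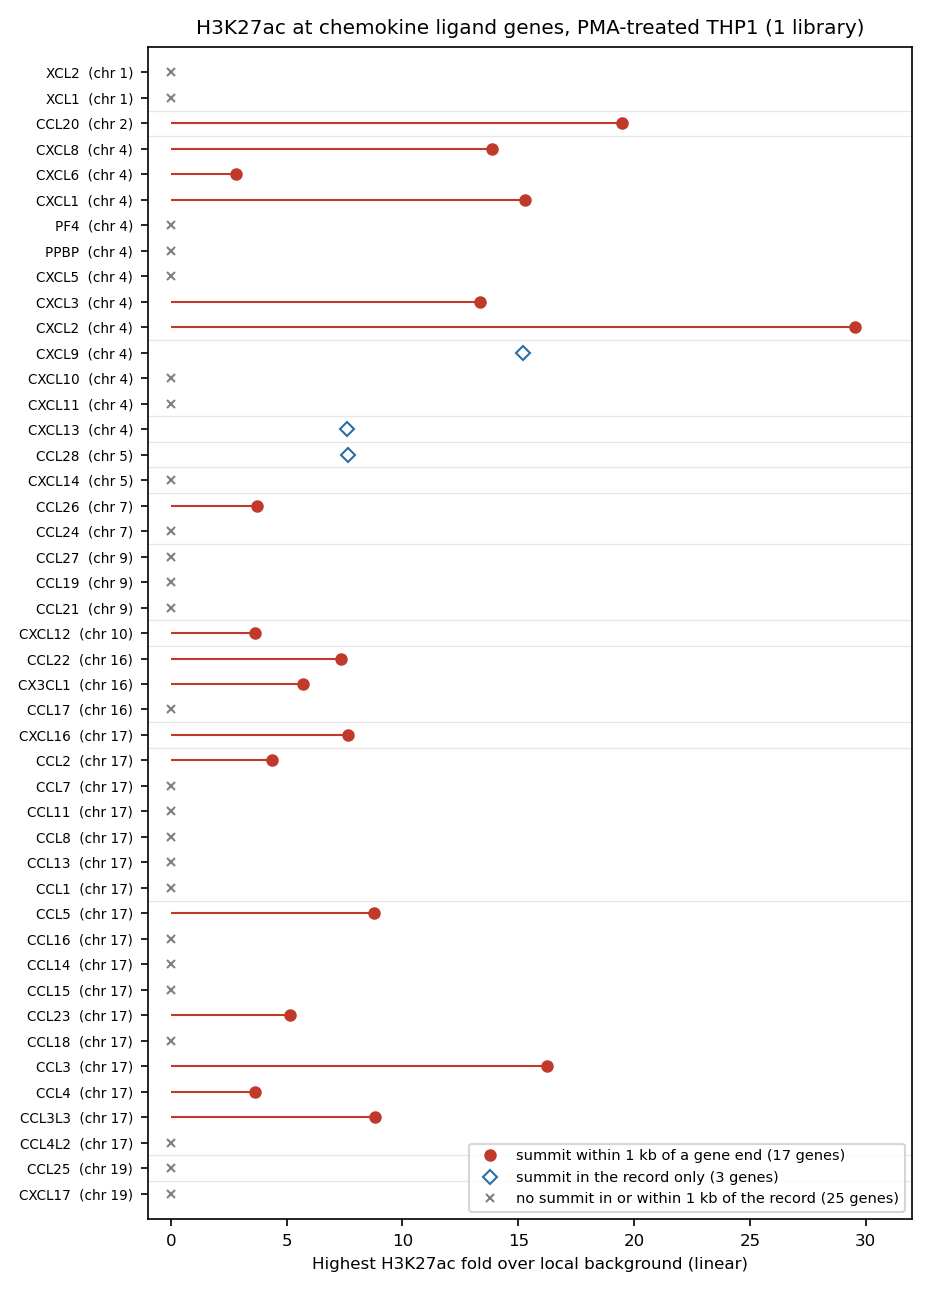
Highest H3K27ac fold at each of the 45 chemokine ligand genes (rows, in chromosome order) on a linear axis. Red points are the 17 genes with a summit within 1 kb of an end, blue diamonds the 3 with a summit in the record only, and crosses the 25 with none; CXCL2 is the highest at 29.5.

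The neutrophil attractants included the member with the highest fold at an end, CXCL2, and 5 of 7 were marked, against 53.4% of all genes. CXCL2 (chromosome 4, 74097040 to 74099195) had a fold of 29.5 on 86 fragments at the summit of a peak spanning 74097641 to 74099740. It ranked 2956 by fold among the 10608 marked genes. CXCL1 (73869393 to 73871308) had a fold of 15.3 on 59 fragments, at a summit 82 bp inside the start. CXCL8 (73740569 to 73743716) had a fold of 13.8 on 39 fragments, at a summit 962 bp before the start, and its peak of 3974 bp reached over the start. CXCL3 (74036589 to 74038689) had a fold of 13.4 on 47 fragments, 197 bp inside the start. These 4 genes therefore carried acetylation over the starts whose sequences are printed above. By fold, CXCL1, CXCL8 and CXCL3 ranked 6004, 6480 and 6650 among the marked genes. Their folds lay under 17.8, the median of the highest fold at the ends of all marked genes.

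CXCL6, whose promoter resembles that of CXCL5, stood far lower. Its peak of 358 bp had a fold of 2.83 on 11 fragments, against a local background of 3.24 fragments, began inside the record and did not reach the start. CXCL5 had no summit at either end, and its nearest peak was 17063 bp from the record. PPBP and PF4, which are stored in platelet granules, were 27550 and 33616 bp from the nearest peak. Platelet markers chosen for the same comparison were marked in 0 of 4 cases, against 53.4% of all genes.

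The chromosome 4 cluster from CXCL8 to CXCL2 spanned 359 kb. With 10 kb on both sides it held 28 H3K27ac peaks, of which 5 were at members and 23 lay between them or in the flanks. Peaks covered 9.61% of this stretch, against 1.04% of the chromosome between its outermost protein-coding genes. The longest stretch without a peak was 97.8 kb, from 73917927 to 74015739, and PF4, PPBP and CXCL5 all lay in it. The marked genes thus stood at both sides of the cluster and the unmarked ones together in its middle.

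The largest H3K27ac peak of the cluster was not at a ligand gene. It ran from 73717525 to 73738688, 21164 bp, to the left of CXCL8, which is its upstream side, with a fold of 75.0 on 183 fragments and its summit 9001 bp from the record. When peaks within 10 kb were joined, CXCL8 belonged to a domain of 45.5 kb with 6 peaks. This domain ranked 34 of 20969 by fold times width, summed over its peaks, and no other domain over a member ranked above 1426.

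**Figure D2:**
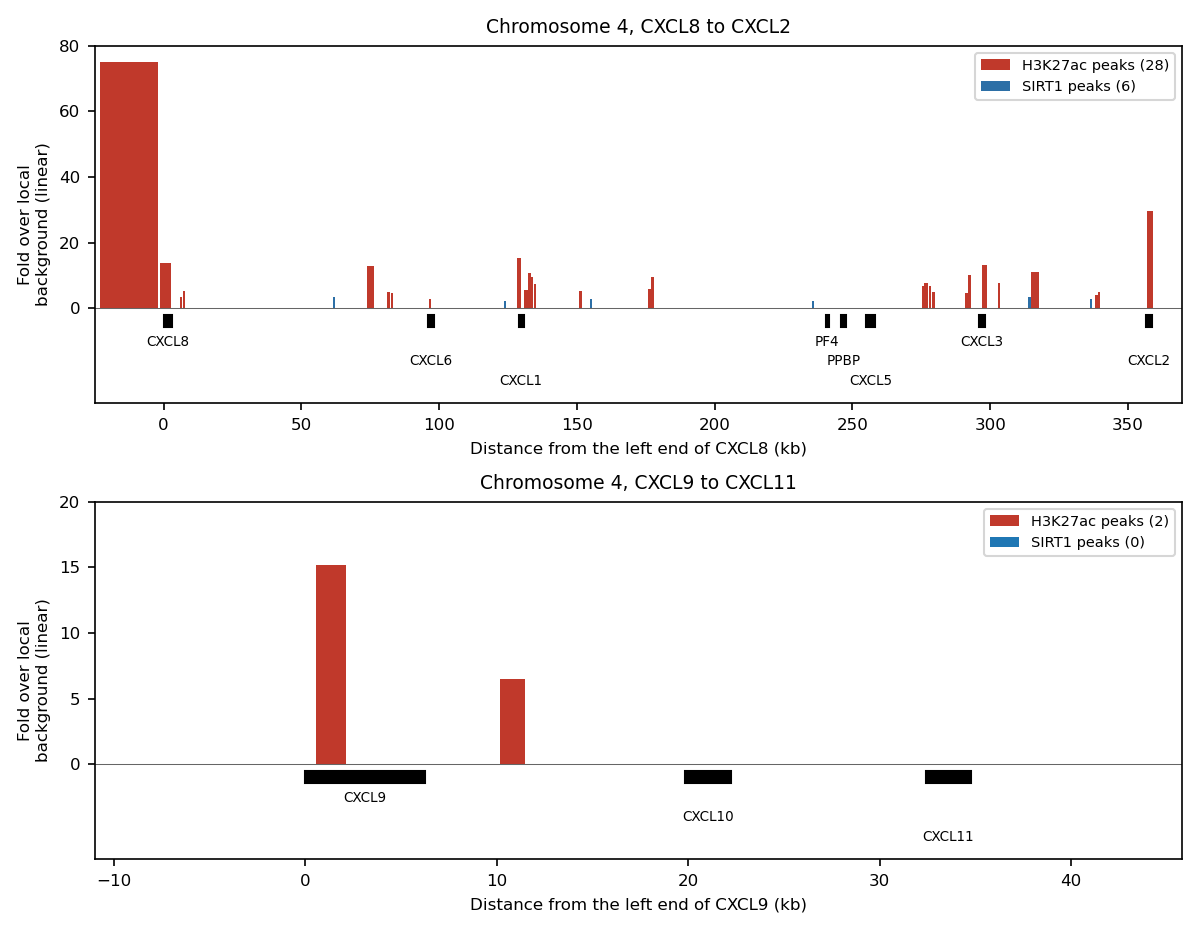
H3K27ac (red) and SIRT1 (blue) peaks as bars of their fold on a linear axis, by distance in kb from the left end of the first gene, over both chromosome 4 clusters with 10 kb on both sides; black boxes are the gene records, and narrow peaks and records are drawn at a minimum width. The peak of fold 75.0 stands left of CXCL8, and no H3K27ac bar stands at PF4, PPBP or CXCL5. The axis of the CXCL8 to CXCL2 panel runs farther left to show that peak in full. Peaks with a summit more than 10 kb outside a cluster are not drawn.

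The CXCR3 ligands, farther along chromosome 4, had no summit at an end. In CXCL9 (76001275 to 76007509) a peak from 76001823 to 76003391 lay inside the record, with a fold of 15.2 on 29 fragments and a summit 4802 bp past the annotated start. CXCL10 and CXCL11 had no H3K27ac peak within 8379 and 20943 bp of their records. The cluster with 10 kb on both sides held 2 H3K27ac peaks and 0 SIRT1 peaks. The promoter windows of CXCL9 and CXCL10 were the 2 of the 32 members in the table with the interferon-type pattern, a pair of GAAA with NN between them on either strand, which 3.57% of all 35116 windows held.

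On chromosome 17 the CCR2 ligands showed a single marked gene. CCL2 (34255285 to 34257203), the main monocyte attractant, had a peak of 443 bp with a fold of 4.35 on 9 fragments. A higher peak, with a fold of 15.5 on 36 fragments, had its summit at 34252511, 2774 bp left of the record. A further 3 peaks, with folds of 3.06 to 9.54, stood within 8974 bp on the same side. CCL7, CCL8, CCL11, CCL13 and CCL1, the other genes of this cluster of 108 kb, had no summit at an end or in the record. In this cluster, from CCL2 to CCL1 with 10 kb on both sides, 8 peaks covered 4.29%, against 3.12% of the chromosome. Without the flanks the covered share was 0.908%, under that of the chromosome. The longest stretch without a peak was 62.2 kb, from 34307112 to 34369280.

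In the other chromosome 17 cluster, from CCL5 to CCL4L2, 5 of 10 genes were marked, against 53.4% of all genes. CCL3, CCL4 and CCL5 were among them. CCL3 (36088256 to 36090143) had a fold of 16.2 on 31 fragments, in a peak spanning 36088264 to 36090217. CCL3L3 had a fold of 8.82 on 20 fragments, CCL5 8.78 on 16 and CCL4 3.61 on 6, whereas CCL4L2 had no summit. CCL14, CCL15, CCL16 and CCL23 were grouped as further ligands of CCR1. Of these, CCL23 had a small peak of 235 bp with a fold of 5.16 on 9 fragments, 26 bp inside its start. CCL14, CCL15 and CCL16 had none, and all 3 lay in a stretch of 86.5 kb without an H3K27ac peak, from 35931292 to 36017821. CCL18, a chemokine of alternatively activated macrophages, had none either.

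CCL3 and CCL3L3 are closely similar copies, so reads could have been split between them, which was not tested. The 110 bases before each start are printed to show how alike they are. They lie on the minus strand of chromosome 17 at 36090144 to 36090253 for CCL3 and 36196759 to 36196868 for CCL3L3. Here no letters are in capitals, because neither stretch held the NF-kB-type pattern.
CCL3: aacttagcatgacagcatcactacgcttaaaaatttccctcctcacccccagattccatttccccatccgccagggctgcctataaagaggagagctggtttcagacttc
CCL3L3: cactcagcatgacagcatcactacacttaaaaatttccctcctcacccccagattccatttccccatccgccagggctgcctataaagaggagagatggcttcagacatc
Their promoter windows were 90.8% identical. The gene records, where most of both peaks lay, were not compared. The folds of CCL3 and CCL3L3 are uncertain because reads may have been split, and the handling of reads with several positions is not given in the sources used here. CCL4 and CCL4L2 had no promoter window and were not compared. Whether their folds are affected in the same way was not tested.

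**Figure D3:**
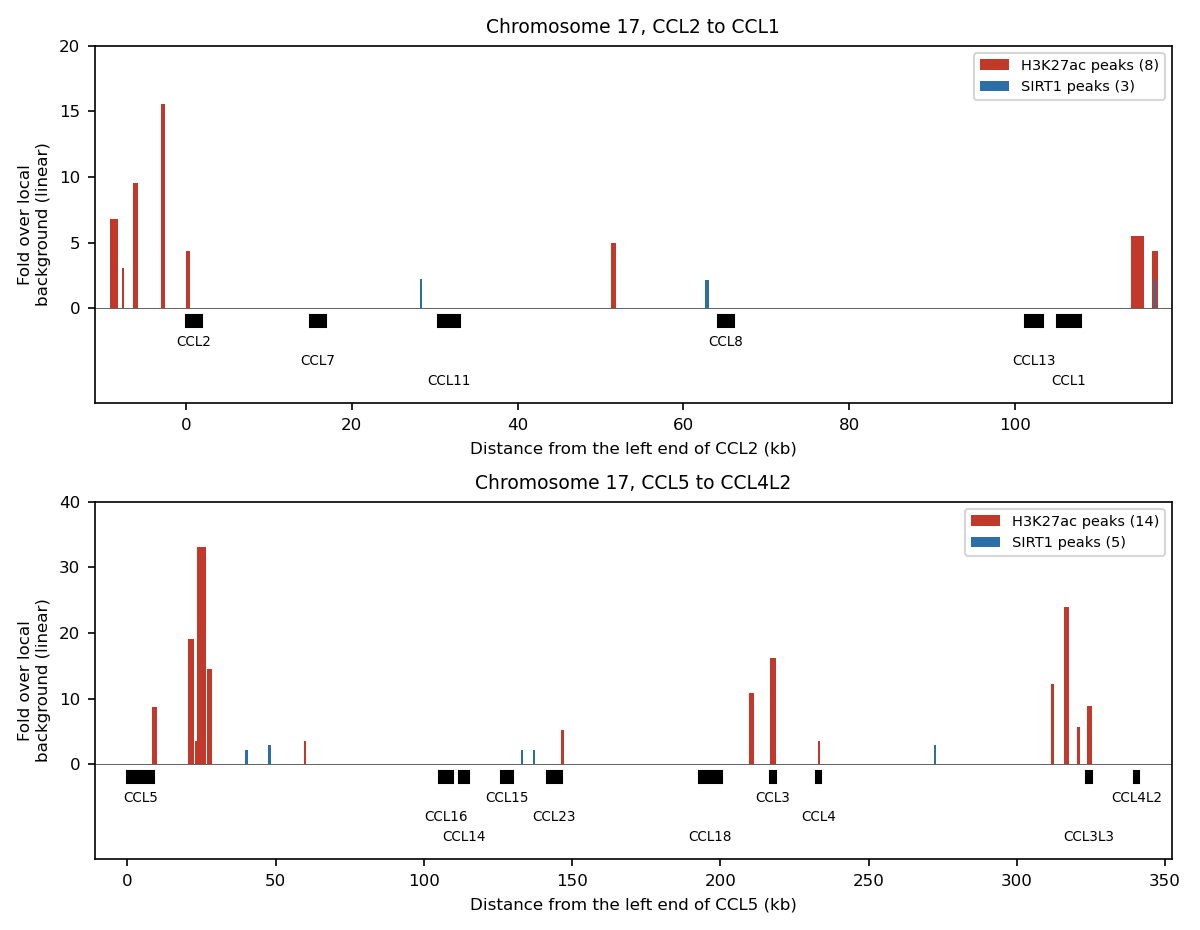
H3K27ac (red) and SIRT1 (blue) peaks by distance in kb from the left end of the first gene, over both chromosome 17 clusters, with fold on a linear axis; black boxes are gene records, and narrow peaks and records are drawn at a minimum width. The highest H3K27ac bars stand beside CCL2 (15.5) and CCL5 (33.0), not on them.

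Among ligands outside the large clusters, CCL20 was the highest. CCL20 (chromosome 2, 227813842 to 227817556) attracts CCR6-positive lymphocytes and dendritic cells, and its peak of 5377 bp from 227813227 to 227818603 covered the whole record. The fold was 19.5 on 51 fragments, at a summit 506 bp beyond the far end. Its promoter is printed because it shared the NF-kB-type pattern, here read on the other strand, with the ELR genes. The stretch is on the plus strand of chromosome 2, from 227813732 to 227813841.
CCL20: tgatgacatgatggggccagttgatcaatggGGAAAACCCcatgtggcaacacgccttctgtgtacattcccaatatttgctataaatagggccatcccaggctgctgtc
The membrane-bound ligands CXCL16 and CX3CL1 were both marked. CXCL16 (chromosome 17, 4733533 to 4739928), which also acts as a scavenger receptor, had 4 peaks in its record with folds of 3.61 to 7.66. CX3CL1, the ligand of CX3CR1, had a fold of 5.72 at a summit 833 bp inside its right end.

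The CCR4 ligand CCL22 on chromosome 16 had a fold of 7.34 on 23 fragments. Its partner CCL17 missed the count narrowly, with a summit 1001 bp from its right end and a fold of 5.58. On the other side of the 1-kb limit, the CXCL8 summit lay 962 bp from an end. The CCR3 ligand CCL26 had a fold of 3.73 on 10 fragments, whereas CCL24 and CCL11 had none.

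Homeostatic ligands were marked in 1 of 9 cases, against 53.4% of all genes. This was CXCL12, the ligand of CXCR4, with a peak of 242 bp and a fold of 3.65 on 9 fragments, 464 bp outside its right end. CXCL13 and CCL28 had a summit inside the record only. In CCL28 the higher of these, with a fold of 7.66 on 34 fragments, lay 95 bp past an annotated internal start. CCL19, CCL21, CCL25, CCL27, CXCL14 and CXCL17 had none, nor had XCL1 and XCL2, which T and NK cells make.

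With summits inside the record also counted, 20 of 45 members had H3K27ac, or 44.4% (29.6 to 60.0), against 64.1% of all genes. The records differ in length, with a median of 3148 bp for the members and 24454 bp for all genes, so counts over whole records are not alike. The 25 members without a summit lay 883 to 75736 bp from the nearest H3K27ac peak, with a median of 17063 bp.

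**Figure D4:**
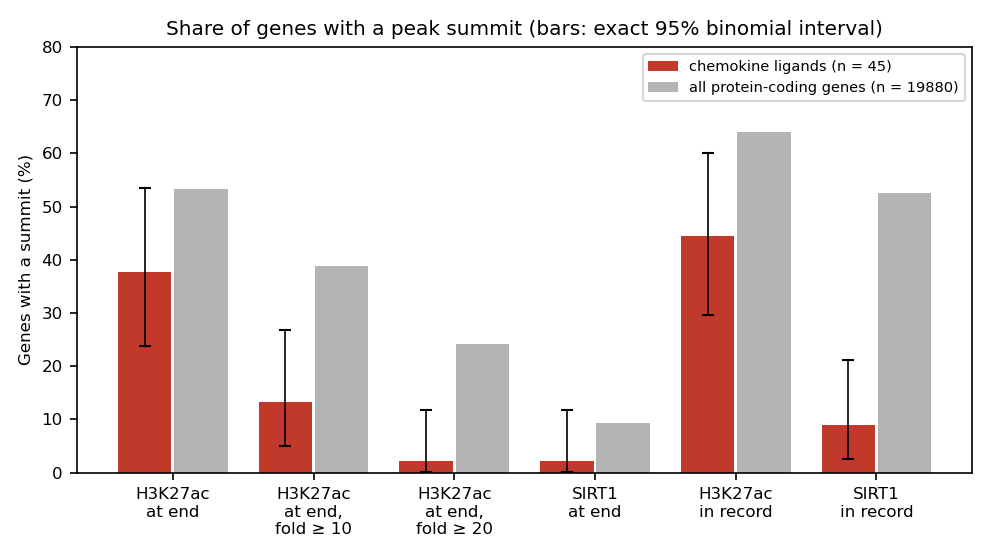
Percent of genes with a peak summit under each definition, for the 45 chemokine ligands (red, left bar of each pair, with exact 95% binomial intervals) and all 19880 protein-coding genes (grey). The red bar is the lower in every pair, 37.8 against 53.4% for H3K27ac at an end.

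Because the highest peaks at CXCL8, CCL2 and CCL5 were beside the gene, the highest peak within 20 kb of each record that was at no protein-coding gene end was compared with the peak at the gene. This comparison was chosen after the values were seen. Of the 17 marked members, 6 had the higher fold away from gene ends, or 35.3%, against 22.5% of all marked genes. They were CXCL8, CCL5, CCL3L3, CCL2, CXCL6 and CCL20. No interval was computed for this share. The end folds compared were also unlike, with a median of 7.66 at marked members, against 17.8 at all marked genes. CCL5 had a fold of 33.0 on 63 fragments at 16406 bp beyond its right end, against 8.78 at its end. CCL3L3 had 23.9 at 7004 bp, against 8.82, and at CCL20 the folds were nearly equal, 19.7 and 19.5. The end fold of CCL3L3 is uncertain, because reads may have been split with CCL3. Of the 28 members not marked at an end, 17 (60.7%) had such a peak within 20 kb, against 39.1% of all unmarked genes. With a fold of at least 10 the shares were close, 5 of 28 members, against 1858 of all 9272 unmarked genes. Several of these peaks lay within 20 kb of more than 1 member, and which gene a peak acts on was not tested.

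**Figure D5:**
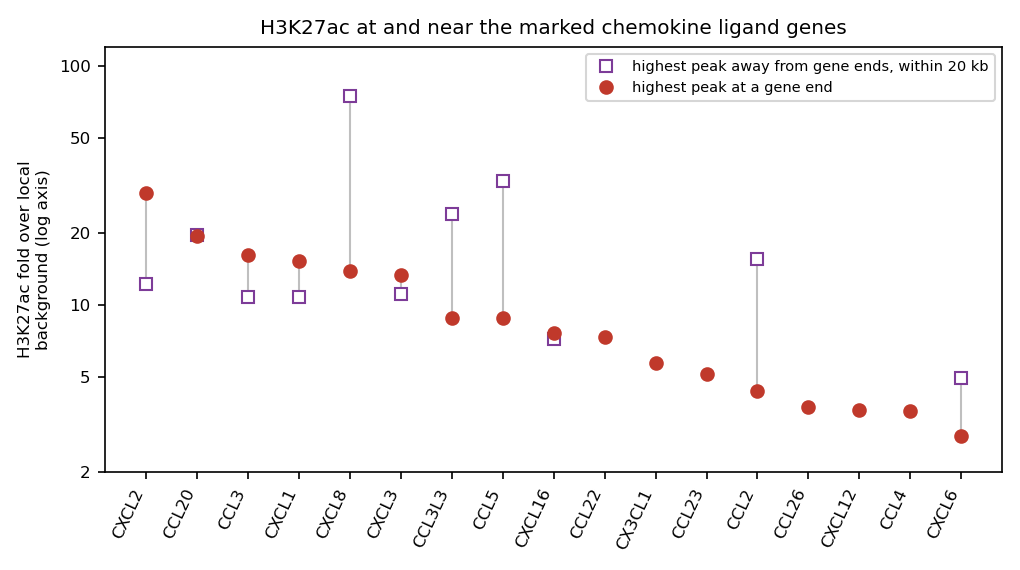
H3K27ac fold on a log axis for the 17 marked members, at the gene end (red points) and at the highest peak away from gene ends within 20 kb (open squares; none where no square is drawn). The squares stand above the points for CXCL8 (75.0), CCL5 (33.0), CCL3L3 (23.9), CCL2 (15.5), CXCL6 (4.96) and, by a small margin, CCL20 (19.7). The end folds of CCL3 and CCL3L3 are uncertain, because reads may have been split between them.

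SIRT1 is an NAD-dependent deacetylase that can remove acetyl groups from histones and from the NF-kB subunit RELA. A SIRT1 summit lay at an end of 1 of 45 members, or 2.22% (0.0562 to 11.8), against 9.38% of all genes. That gene was CXCL14, which epithelia express, with a peak spanning 135571177 to 135571445 on chromosome 5, a fold of 2.20 on 2 fragments and a −log10 q of 0. Its summit lay near the far end of the record, 7796 bp past the annotated start. Both marks at gene ends were seen at 0 of 45 members, which allows a share of up to 6.67% (3 counts of 45; the exact interval ends at 7.87%), against 3.42% of all genes. With counts this small, a difference from all genes in SIRT1 at gene ends was not detectable.

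Within whole records SIRT1 summits were found at 4 members, or 8.89% (2.48 to 21.2), against 52.6% of all genes, with the difference in record length given above. CXCL13, the longest record at 100082 bp, had 3, the highest with a fold of 3.67 on 4 fragments and a −log10 q of 0.175. CXCL17 had a fold of 2.94 on 3 fragments and CCL26 2.20 on 2 fragments. Both lists had a summit in the records of 2 members, CXCL13 and CCL26, against 35.5% of all genes, and at CXCL13 the nearest summits of the lists were at 77587714 and 77594075.

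Across the 4 clusters of chromosomes 4 and 17 there were 14 SIRT1 peaks, on 2 to 4 fragments and with folds of 2.12 to 3.60, and 52 H3K27ac peaks on 6 to 183 fragments. None of these SIRT1 peaks reached a q of 0.05, which 0.149% of the whole SIRT1 list did, and the highest −log10 q was 0.175. The cluster from CXCL8 to CXCL2 held 6, or 15.8 per Mb, against 30.6 per Mb over chromosome 4. The cluster from CCL5 to CCL4L2 held 5, or 13.8 per Mb, and that from CCL2 to CCL1 held 3, or 23.4 per Mb, against 25.3 per Mb over chromosome 17. Of the 14, 1 overlapped an H3K27ac peak, to the right of CCL1. The share of the whole SIRT1 list that overlaps an H3K27ac peak was not counted, so this number has no background. In the SIRT1 list as a whole, 84.4% of peaks rested on 2 or 3 fragments.

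A list of chemokine receptor genes, atypical receptors included, was read the same way. Of these, 7 of 23 had H3K27ac at an end, or 30.4%, against 53.4% of all genes. The highest were the atypical receptor CCRL2, which binds chemerin, with a fold of 54.0, the monocyte receptor CCR1 at 24.8 and CXCR5, the receptor of CXCL13, at 15.5. SIRT1 lay at an end of 1, CCR6, with a fold of 2.20.

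Markers were checked against the labelled cell type. H3K27ac marked an end of 6 of 12 myeloid genes, 3 of 10 T and NK cell genes, 1 of 6 B cell genes, 1 of 8 fibroblast and endothelial genes and 0 of 6 epithelial and hepatocyte genes, against 53.4% of all genes. The myeloid share was thus no higher than that of all genes. The 6 marked myeloid genes had folds at an end from 10.97 (CD14) to 108.5 (SPI1). ITGAX, FCER1G and FCGR1A had a summit inside the record only, with folds of 18.1, 98.8 and 26.8. The count at gene ends therefore left them out. Left out in the same way were PECAM1 (72.8), PAX5 (5.66), COL1A1 (4.47), CD247 (4.34) and VWF (4.13) of the other lists. The myeloid genes LYZ, TYROBP and MPEG1 had no summit in the record or within 1 kb. The H3K27ac list held 50268 peaks with a median of 15 fragments, and the SIRT1 list 96805 with a median of 3.

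Other promoter patterns were counted in the 32 members of the promoter table, on windows from 250 bases before to 50 after each start. The NF-kB-type pattern was in 13 members, or 40.6%, against 20.1% of all 35116 windows. TATAAA, read on the sense strand, was in 15 members, or 46.9%, against 7.33%. The AP-1-type pattern TGANTCA was in 7 members (21.9%, against 7.71%), the C/EBP-type TTGCNNAA in 5 (15.6%, against 10.5%) and the PU.1-type GAGGAA in 14 (43.8%, against 27.9%). On the sense strand alone the C/EBP-type pattern was in 0 of 32 members, against 5.44% of windows. Some members had more than 1 window, and members count by gene while the background counts windows. An H3K27ac peak overlapped a promoter window of 8 of the 32 members, against 39.7% of all windows. These were CCL20, CXCL8, CXCL1, CXCL3, CXCL2, CCL28, CCL23 and CCL3.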

How the data were processed

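Peak lists of ChIP-seq in PMA-treated THP1 cells were used, 1 for H3K27ac and 1 for SIRT1; the input has no peak list here. MACS2 and deepTools are named in the submitters' processing notes, with the build hg38. Which aligner, tool versions and control sample applied is not given in the sources used here. The authors deposited, for each peak, a score, a fold (a ratio to local background), −log10 p, −log10 q and a summit offset. The deposited score equalled 10 times −log10 q (H3K27ac) or 10 times −log10 p (SIRT1), cut to a whole number, and the lowest values in each list differ in the same way, at a −log10 q of 1.30 for H3K27ac and a −log10 p of 2.00 for SIRT1. Fragments at each summit were recovered from fold and −log10 p, with 1 solution for 99.98% of H3K27ac and 99.99% of SIRT1 peaks, and the step was tested on simulated data. Total read depth is unknown.

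Gene records came from RefSeq (GRCh38.p14), without rows on other scaffolds. Of 45 members, 32 had a promoter window, and starts were known for these only. Members within 500 kb of each other formed a cluster, and peaks within 10 kb formed a domain. Every member with a summit at an end or in its record was named. No test was made. The members, lists and alternatives were chosen with earlier results of these data known. Values were computed with pandas 2.3.3, numpy 2.4.6, Biopython 1.88 and scipy 1.17.1 in Python 3.11.15, and drawn with matplotlib 3.10.9. The values of 1 chemokine receptor gene are not reported here.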

Additional observations from a re-analysis of the deposited data

Results flagged for a closer look

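Peaks outside the primary chromosomes entered no comparison. Alternate contigs of chromosome 17 held 178 H3K27ac peaks and 79 SIRT1 peaks. On contig KI270909v1_alt an H3K27ac peak from 250665 to 252489 had a fold of 11.6 on 24 fragments, at the coordinates annotated for CCL3L1, 250577 to 252466. The annotation table does not name the scaffold of CCL3L1, so the match rests on the coordinates. It is ambiguous, since on contig KI270857v1_alt a smaller peak, 252267 to 252524 (fold 4.65, 8 fragments), overlapped the same coordinates. No peak of either list on such a contig lay within 1 kb of the coordinates of CCL4L1.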

How the results depend on the processing

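The count of marked members was 12 to 19 with windows of 500 and 2500 bp, with 1 shared base in place of the summit, with a fold of at least 4 and with a −log10 q of at least 5, against 17 reported. At 500 bp, CCL20, CXCL8, CX3CL1, CCL3 and CCL4 dropped out; at 2500 bp or 1 shared base, CXCL9 and CCL17 came in. An H3K27ac fold of at least 10 gave 6 at ends and 7 in records, and annotated starts only, known for 32 members, gave 11. SIRT1 at ends gave 0 with 500 bp, a fold of at least 4, a −log10 q of at least 5, at least 4 fragments and starts only, 6 with 2500 bp, and 2 with 1 shared base. SIRT1 in records gave 0 with that fold or that q, and 1 with at least 4 fragments. Both marks at ends gave 0 in every setting run. Among these alternative settings, all genes were counted only for a fold of at least 10 at ends, where their share was 38.9%. How the other member counts stand beside all genes was not tested. Covered length moved to 0.908% for CCL2 to CCL1 over the span alone, below the chromosome's 3.12%, and to 3.06% for CXCL9 to CXCL11 with 50 kb on both sides. The domain over CXCL8 was 86.0 kb when joined within 25 kb. On the sense strand only, the C/EBP-type pattern was in 0 members (5.44% of windows) and the PU.1-type in 9 (28.1%, against 15.2% of windows). Higher peaks away from gene ends, an alternative chosen after seeing the data, were found for 4 of 17 members within 10 kb (23.5%, against 17.5% of all marked genes) and 8 within 50 kb (47.1%, against 32.4%). Fewer peaks or a narrower window account for the lower counts by construction; other causes were not tested. No paired analysis was possible because each antibody had 1 library.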
